A study of Mus musculus with 12 samples.

Results

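The genes described here are 10 that lipid-laden macrophages are known to express: *Gpnmb*, *Mmp12*, *Itgax*, *Trem2*, *Cd68*, *Lgals3*, *Spp1*, *Atp6v0d2*, *Ctsk* and *Cd36*. They were matched by the gene symbols of the deposited normalized values, joined by Ensembl id to the 39017 genes of the count table, and all 10 were found. They were selected on measured values, with the difference between the genotypes of these same mice already known, so that difference, and whether a gene passed the study's cut-offs, is given for them as a description and supports nothing. RNA was sequenced from whole adrenals of female mice aged 10 to 11 weeks, trimmed of fat, 1 library from each of 12 mice. By their genotype label, the 6 control mice (Ctrl) carried AS Cre/+, a Cre recombinase inserted in the aldosterone synthase gene *Cyp11b2*, which is active in zona glomerulosa (zG) cells. The 6 βCat-GOF mice were bigenic: they carried the same AS Cre/+ together with 1 Ctnnb1 fl(ex3) allele, from which Cre removes exon 3, so that β-catenin escapes degradation and is stabilized in zG cells. By these labels all 12 mice carried Cre, whereas the titles of the control samples call them wild type, and if controls lacked Cre, its presence and stabilized β-catenin cannot be told apart. The mice were on a mixed sv129-C57Bl/6 background. Macrophages were not the cells targeted, and whole adrenals were sequenced, so every value is an average over all cells of the gland. The study compared the genotypes to find what follows from stabilized β-catenin in the adrenal transcriptome.

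Macrophages that take up more lipid than they can export, in atherosclerotic plaques, fat tissue and injured brain, switch on a shared set of genes. The receptor TREM2 senses lipids and lipoproteins at their surface, lysosomal proteins such as CD68, GPNMB, cathepsin K and a proton pump subunit increase as cargo is digested, and the cells secrete osteopontin, galectin-3 and the elastase MMP12. The adrenal cortex stores large amounts of cholesterol ester and holds resident macrophages between its steroid-producing cells.

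The libraries held between 13484675 and 25625494 counts. The adrenal and medullary markers were abundant in every library (8 of 8 markers tested). *Ctnnb1* itself was at 21625 ± 858 normalized counts in Ctrl and 21397 ± 1151 in βCat-GOF mice (SD, n = 6 each), and a count over the whole gene cannot show the loss of 1 exon. Over all genes, 11 libraries had a higher median Spearman correlation with their own genotype than with the other. The exception was the βCat-GOF mouse 1369-2ear, with 0.972 to its own genotype and 0.977 to the controls. The labels 1367-1 and 1367-1-2, 1367-5 and 1367-5-2, and 1369-2 and 1369-2ear share a stem, although each library is described as a separate mouse. Controls have labels that begin with 1367 and βCat-GOF mice with 1369 or 1387, so genotype and whatever this number stands for cannot be told apart.

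Differences between genotypes are fitted log2 fold changes, βCat-GOF over Ctrl, ± standard error (SE). *Gpnmb*, *Mmp12* and *Itgax* were lower in βCat-GOF adrenals and *Spp1* was higher, while *Cd36* hardly differed. At the study's cut-offs (adjusted p under 0.05, fold above 1.4, base mean above 100), 3 of the 9 genes that passed the filter on low counts were called lower and 1 was called higher. Of all 14953 genes tested, 0.869% were called lower and 1.48% higher. Because this contrast chose the genes, nothing is read from these counts. The median log2 fold change of the 9 genes was -0.89, beside 0.000105 over all genes tested, and *Atp6v0d2* was not tested because its counts were too low. *Mmp12* and *Itgax* had every βCat-GOF mouse below every control, an arrangement found in 1.16% of all genes tested, and for none of the 9 did all βCat-GOF mice exceed all controls, as in 1.61% of all genes. In bulk tissue, a change in macrophage number, in RNA per macrophage and in other cells that express these genes cannot be told apart.

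**Figure D1:**
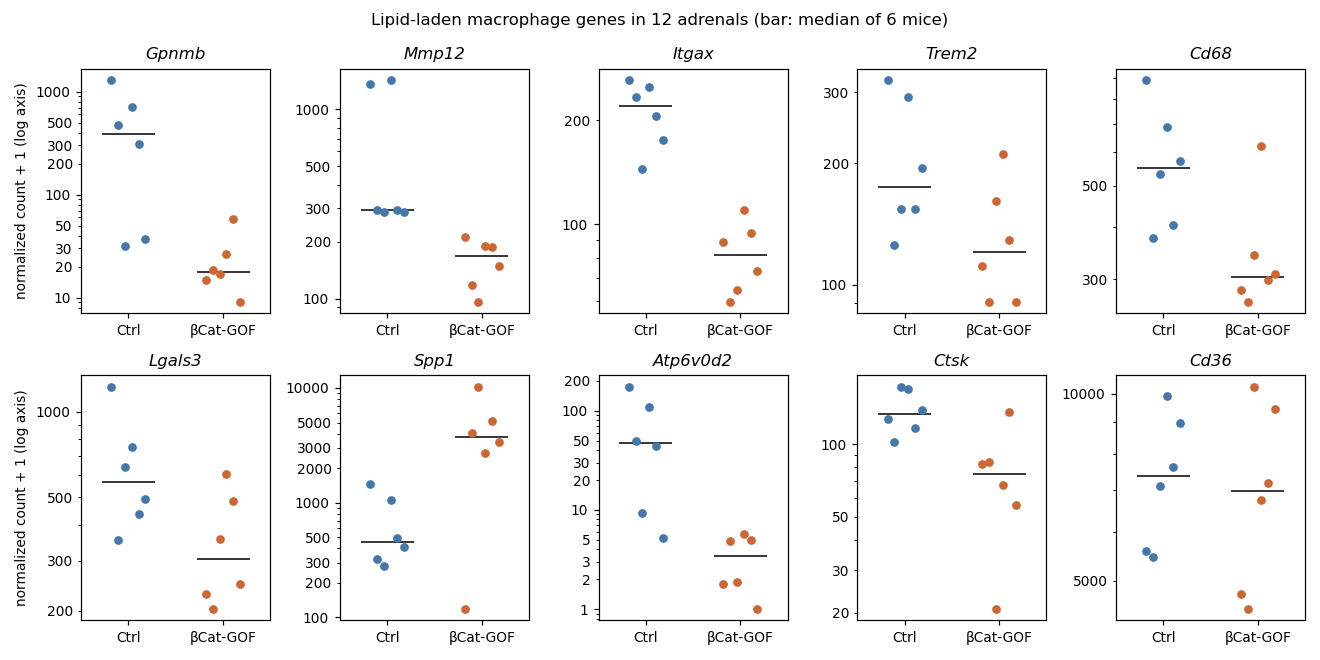
Normalized counts plus 1 (log axis) of each of the 10 genes in 6 Ctrl and 6 βCat-GOF adrenals, 1 point per mouse, with a bar at the median of each genotype; the vertical range differs between panels. *Mmp12* and *Itgax* do not overlap between genotypes, 1 βCat-GOF mouse is below all controls for *Spp1* at 117, and *Cd36* overlaps throughout.

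*Gpnmb* encodes a transmembrane glycoprotein of phagocytes whose lysosomes are loaded, and lies at chr6:49036546-49070929 on the + strand (GRCm38, the same assembly as mm10). Among controls it was at 1303 normalized counts in mouse 1367-1-2, 473 in 1367-1, 30.5 in 1367-5-2, 702 in 1367-5, 308 in 1367-7 and 36.3 in 1367-10. Among βCat-GOF mice it was at 13.9 in 1369-2ear, 17.5 in 1369-2, 16.1 in 1369-4, 25.3 in 1369-8, 57.2 in 1387-8 and 8.04 in 1369-3. Controls fell apart into 4 mice at 308 or above and 2 mice near the βCat-GOF values, and 5 of the 6 βCat-GOF mice were below every control. The means were 475 ± 481 and 23.0 ± 17.6 (SD, n = 6 each), a log2 difference of -4.38 ± 0.84. It ran from -4.90 to -3.76 over fits leaving out a mouse each, with -3.76 without control 1367-1-2. Without both 1367-1-2 and 1367-5 it was -3.23, and *Gpnmb* was no longer called. Whether *Gpnmb* then missed the cut-off on adjusted p or that on base mean (above 100) was not examined. Between the highest and the lowest control there was a 42.8-fold range. The SD of *Gpnmb* among controls was 2.23 on the log2 CPM scale, higher than that of 99.9% of the genes tested, whose median was 0.205.

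*Atp6v0d2*, at chr4:19876841-19922605 on the - strand, encodes the d2 subunit of the vacuolar proton pump, which osteoclasts and some macrophages use in place of the widespread d1 subunit. The libraries held 186 counts of it in control 1367-1-2, 58 in 1367-1, 11 in 1367-5-2, 104 in 1367-5, 48 in 1367-7 and 3 in 1367-10. The βCat-GOF mice held 1, 4, 1, 3, 4 and 0 counts. The 2 controls with the fewest counts were again 1367-5-2 and 1367-10, and 5 controls were above every βCat-GOF mouse in normalized counts. Its mean was 64.6 ± 65.6 normalized counts in Ctrl and 2.38 ± 2.04 in βCat-GOF mice (SD, n = 6 each), and values this small in βCat-GOF mice are set largely by counting noise. The d1 subunit gene *Atp6v0d1* was at 1978 ± 107 and 2009 ± 300, a log2 difference of 0.012 (SE 0.092, edgeR adjusted p = 0.96).

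*Mmp12* encodes macrophage elastase, which degrades elastin and other matrix proteins, and lies at chr9:7344381-7369499 on the + strand. Its values in controls were 1353 normalized counts in 1367-1-2, 293 in 1367-1, 287 in 1367-5-2, 1434 in 1367-5, 295 in 1367-7 and 286 in 1367-10. Thus 4 controls lay between 286 and 295 and 2 were several-fold higher. The βCat-GOF mice were at 212 in 1369-2ear, 117 in 1369-2, 94.8 in 1369-4, 190 in 1369-8, 186 in 1387-8 and 147 in 1369-3, each below the lowest control. The means were 658 ± 570 and 158 ± 45.8 (SD, n = 6 each), a log2 difference of -2.06 ± 0.47. Without the controls 1367-1-2 and 1367-5 the log2 fold change was -0.89, and the gene was no longer called. Of 12 fits leaving out a mouse each, 5 called it, those without 1367-1, 1367-5-2, 1367-7, 1367-10 or 1369-2ear, and the log2 fold change ran from -2.22 to -1.67 over the 12. An opposite-strand gene, *Mmp1b*, overlaps 2.17% of its exon bases, and the sources used here do not state whether strand was used in counting.

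*Itgax* encodes CD11c, the αX integrin of dendritic cells and lipid-laden macrophages, at chr7:128129547-128150657 on the + strand. Controls were at 261, 233, 143, 249, 205 and 175 normalized counts in the same order of mice, and βCat-GOF mice at 88.1, 58.5, 63.5, 109, 93.6 and 72.3. It was the steadiest of the genes called lower, with a 1.82-fold range among controls and a 1.86-fold range among βCat-GOF mice. The means were 211 ± 45.6 and 80.9 ± 19.4 (SD, n = 6 each), a log2 difference of -1.39 ± 0.20. Fits leaving out a mouse each moved this value only between -1.49 and -1.31, and without controls 1367-1-2 and 1367-5 it was -1.24. Its partner chain *Itgb2*, the β2 integrin, was at 375 ± 70.8 and 275 ± 72.5, a log2 difference of -0.46 (SE 0.168, edgeR adjusted p = 0.147). *Itgam*, the αM chain that pairs with the same β2 chain, was at 167 ± 30.4 and 153 ± 46.7, a log2 difference of -0.14 (SE 0.202, edgeR adjusted p = 0.747).

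*Trem2*, the lipid-sensing receptor gene at chr17:48346401-48354147 (+ strand), ranged from 124 to 321 normalized counts in Ctrl (median 174) and from 89.6 to 210 in βCat-GOF mice (median 119). The groups overlapped, with 3 of 6 βCat-GOF mice below every control, and the log2 difference was -0.66 ± 0.27. Its adaptor *Tyrobp* (DAP12), which passes the signal of TREM2 into the cell, was at 655 ± 196 and 435 ± 51.7, a log2 difference of -0.60 (SE 0.182, edgeR adjusted p = 0.0901). *Cd68*, a lysosomal glycoprotein gene used to mark macrophages (chr11:69664213-69666153, - strand), ranged from 376 to 889 in Ctrl (median 551) and from 264 to 618 in βCat-GOF mice (median 303). In *Cd68*, 5 of 6 βCat-GOF mice were below every control, the exception was mouse 1369-8, and the log2 difference was -0.72 ± 0.24. *Lgals3* encodes galectin-3, a lectin that binds damaged lysosomes (chr14:47367751-47386160, + strand). It ranged from 353 to 1223 in Ctrl (median 567) and from 202 to 601 in βCat-GOF mice (median 303), overlapped between genotypes, and had a log2 difference of -0.89 ± 0.32. Without controls 1367-1-2 and 1367-5 the log2 difference was -0.26 for *Trem2*, -0.43 for *Cd68* and -0.46 for *Lgals3*. None of these 3 genes was called by edgeR, and *Cd68* was called lower by DESeq2, which called 1.72% of its 16438 genes lower and 2.21% higher.

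*Ctsk* encodes cathepsin K, a collagen-degrading protease of osteoclasts and giant cells (chr3:95499256-95509362, + strand). It ranged from 101 to 172 normalized counts in Ctrl (median 132) and from 19.7 to 135 in βCat-GOF mice (median 74.2). The βCat-GOF mice ran from 19.7 in 1369-4 to 135 in 1387-8, and only 1387-8 was within the control range. Its log2 difference was -0.90 ± 0.32, and it was not called. *Ctss*, encoding cathepsin S of antigen-presenting cells, had a log2 difference of -0.51 (SE 0.169, edgeR adjusted p = 0.111). *Cd36*, a scavenger receptor and fatty acid carrier that endothelium and fat cells express as well as macrophages (chr5:17781690-17888801, - strand), ranged from 5470 to 9899 in Ctrl (median 7363) and from 4504 to 10264 in βCat-GOF mice (median 6962). Its log2 difference was -0.07 ± 0.21, and it was positive in some fits that left out a mouse (from -0.20 to 0.04). *Scarb1*, encoding the HDL receptor that feeds cholesterol into steroid-producing cells, had a log2 difference of 0.86 (SE 0.324, edgeR adjusted p = 0.159).

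*Spp1*, encoding osteopontin, a secreted ligand of integrins and CD44, ran the other way (chr5:104435118-104441050, + strand). Controls were at 1453 normalized counts in 1367-1-2, 323 in 1367-1, 277 in 1367-5-2, 1047 in 1367-5, 493 in 1367-7 and 412 in 1367-10. The βCat-GOF mice were at 117 in 1369-2ear, 4045 in 1369-2, 10278 in 1369-4, 2685 in 1369-8, 5150 in 1387-8 and 3409 in 1369-3. So 5 βCat-GOF mice were above every control and 1369-2ear was below every control. The means were 668 ± 475 and 4281 ± 3389 (SD, n = 6 each), a log2 difference of 2.66 ± 0.70, and without 1369-2ear it was 2.93. Only 2 of the 12 fits leaving out a mouse each called it, those without 1367-1-2 and without 1369-2ear. The same-strand gene *Gm42793* overlaps 18.75% of its exon bases in GENCODE M21, and reads there may not have been assigned to *Spp1*. Of 10 integrins and osteopontin receptors, all tested, 1 was called higher and 0 lower. *Itgb3*, the β3 integrin chain, rose from 132 ± 15.7 to 256 ± 94.0, a log2 difference of 0.94 (SE 0.218, edgeR adjusted p = 0.0309), with 5 of 6 βCat-GOF mice above every control. *Cd44* was at 1289 ± 211 and 2791 ± 1686, a log2 difference of 1.10 (SE 0.337, edgeR adjusted p = 0.0911), and was called higher by DESeq2.

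The letters upstream of 4 of these genes are shown because *Gpnmb*, *Itgax* and *Mmp12* were the genes called lower and *Spp1* the one called higher. They come from RefSeq on GRCm38.p6 and cover the 250 bases before each transcription start, 5′ to 3′, all on the + strand. The windows are chr6:49036268-49036517 for *Gpnmb*, chr7:128129300-128129549 for *Itgax*, chr9:7344147-7344396 and chr9:7347124-7347373 for the 2 starts of *Mmp12*, and chr5:104434861-104435110 for the first start of *Spp1*. Capitals mark every match, on either strand, to TGANTCA (bound by AP-1), GAGGAA (the core of PU.1 sites), CACGTG or CATGTG (E-boxes that MITF and its relatives bind).
*Gpnmb*: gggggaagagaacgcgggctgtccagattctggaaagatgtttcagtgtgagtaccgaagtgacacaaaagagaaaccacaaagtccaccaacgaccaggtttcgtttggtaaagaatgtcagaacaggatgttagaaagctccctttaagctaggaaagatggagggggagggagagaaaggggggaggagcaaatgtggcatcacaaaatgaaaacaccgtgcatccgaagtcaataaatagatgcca
*Itgax*: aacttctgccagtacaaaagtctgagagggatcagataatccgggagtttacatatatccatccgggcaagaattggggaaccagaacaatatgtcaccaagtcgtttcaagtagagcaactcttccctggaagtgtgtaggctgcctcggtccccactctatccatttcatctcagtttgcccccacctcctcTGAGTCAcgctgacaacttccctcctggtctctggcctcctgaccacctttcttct
*Mmp12*, first start: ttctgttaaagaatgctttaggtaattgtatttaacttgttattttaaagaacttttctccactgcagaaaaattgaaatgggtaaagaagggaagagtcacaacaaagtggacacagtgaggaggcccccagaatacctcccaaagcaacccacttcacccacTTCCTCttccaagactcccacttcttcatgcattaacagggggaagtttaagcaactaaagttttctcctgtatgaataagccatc
*Mmp12*, second start: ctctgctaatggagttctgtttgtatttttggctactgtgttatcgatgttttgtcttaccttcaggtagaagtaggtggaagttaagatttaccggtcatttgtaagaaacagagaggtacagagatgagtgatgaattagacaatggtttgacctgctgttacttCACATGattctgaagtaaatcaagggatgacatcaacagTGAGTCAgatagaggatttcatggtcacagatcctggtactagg
*Spp1*: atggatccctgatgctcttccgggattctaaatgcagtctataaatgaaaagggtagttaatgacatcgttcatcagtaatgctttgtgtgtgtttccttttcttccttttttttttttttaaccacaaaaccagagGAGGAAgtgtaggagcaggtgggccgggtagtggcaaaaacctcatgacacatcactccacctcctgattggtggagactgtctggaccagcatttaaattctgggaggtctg
The *Itgax* window holds TGANTCA at -56 to -50 from the start, and the second *Mmp12* window holds it at -44 to -38 beside CATGTG at -83 to -78. GAGGAA lies at -86 to -81 on the opposite strand in the first *Mmp12* window and at -113 to -108 in *Spp1*. The *Gpnmb* window held none of the 4 motifs. RefSeq gave windows for 9 of the 10 genes, 11 windows in all, with no entry for *Atp6v0d2*. Of these 11, 4 held TGANTCA, 5 held GAGGAA, 1 held CATGTG and 0 held CACGTG. Among all 32851 windows of this length, 6.75% held TGANTCA, 23.3% GAGGAA, 12.3% CATGTG and 6.02% CACGTG. These are matches of letters, and say nothing of which factor was bound.

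Levels of different genes were compared as CPM per kilobase of exon (CPM per kb). In Ctrl, *Cd36* was the most abundant of the 10 at 104 ± 25.0, above 97.4% of the genes tested by its mean over all mice. *Cd68* followed at 22.9 ± 7.48, *Spp1* at 20.2 ± 14.3 and *Lgals3* at 17.4 ± 8.37, and these 3 overlapped from mouse to mouse. *Mmp12* was at 4.54 ± 3.93, *Ctsk* at 4.52 ± 0.936, *Gpnmb* at 3.64 ± 3.66, *Itgax* at 2.20 ± 0.475, *Trem2* at 2.08 ± 0.814 and *Atp6v0d2* at 1.19 ± 1.20 (SD, n = 6 each). Apart from *Cd36*, every gene in this order overlapped its neighbour among controls. In βCat-GOF mice *Spp1* was at 128 ± 101 CPM per kb beside 98.7 ± 31.3 for *Cd36*, and *Gpnmb* was at 0.175 ± 0.134.

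The mice of one genotype also differed among themselves. The genes were chosen by the difference between genotypes, to which controls 1367-1-2 and 1367-5 contribute, so correlations in Ctrl are not independent of that choice. Controls 1367-1-2 and 1367-5 had the highest values of *Gpnmb*, *Atp6v0d2*, *Mmp12*, *Itgax*, *Trem2*, *Cd68*, *Lgals3* and *Spp1*, though not of *Ctsk* or *Cd36*. Pearson r and Spearman rho of log2 CPM were computed for the 36 pairs of the 9 tested genes in each genotype (n = 6), 72 tests in all for each coefficient. The pairs of *Mmp12* in Ctrl stay in this adjustment but are left out of what follows for Ctrl, since 4 of its values there lie together and 2 apart. In Ctrl, 23 of the other 28 r values were positive with a median of 0.423. In βCat-GOF mice 27 of 36 were positive with a median of 0.274, or 21 of 28 with a median of 0.298 without the *Mmp12* pairs. The difference between the genotypes was not tested. In neither genotype did a pair pass after adjustment: the lowest adjusted exact permutation p was 0.10 for Pearson r and 0.20 for Spearman rho. For Pearson r, 5 pairs in Ctrl and 4 in βCat-GOF mice (3 without *Mmp12*) had an unadjusted exact p under 0.05.

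**Figure D2:**
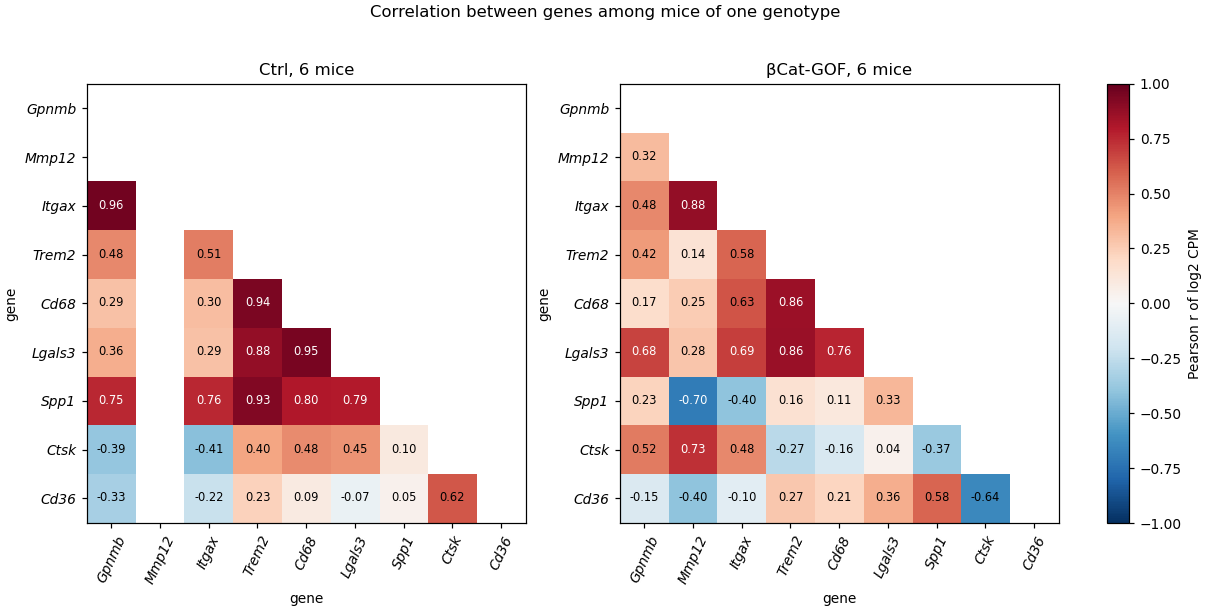
Pearson r of log2 CPM for each pair of genes among the 6 Ctrl mice (left) and the 6 βCat-GOF mice (right), from -1 in blue to 1 in red. *Mmp12* is left blank in Ctrl because its values there fall into 2 clusters. *Trem2*, *Cd68* and *Lgals3* have r of 0.76 or more with one another in both genotypes. Without 1369-8 and 1369-2, r of *Cd68* with *Lgals3* in βCat-GOF mice was 0.185. Without 1367-1-2 and 1367-5, r of *Trem2* with *Lgals3* in Ctrl was 0.502. The other pairs of these genes had r of 0.715 or more without the 2 mice farthest from the first gene's median.

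*Gpnmb* and *Itgax* ranked the 6 controls identically: r was 0.96 (exact permutation p = 0.0014, the smallest 6 mice allow, adjusted 0.10) and rho was 1.0 (exact p = 0.0028, adjusted 0.20). Without 1367-5-2 and 1367-10, the mice farthest from the *Gpnmb* median, r was 0.94. Among βCat-GOF mice the same pair had r = 0.48 (exact p = 0.36, adjusted 0.73) and rho = 0.43 (exact p = 0.42, adjusted 0.67). *Cd68* and *Lgals3* had r = 0.95 in Ctrl (exact p = 0.0042, adjusted 0.15) and rho = 0.94 (exact p = 0.017, adjusted 0.34), and r = 0.82 without 1367-1-2 and 1367-1. *Trem2* and *Cd68* had r = 0.94 in Ctrl (exact p = 0.0083, adjusted 0.20) and rho = 0.94 (exact p = 0.017, adjusted 0.34), and r = 0.83 without 1367-1-2 and 1367-5. In βCat-GOF mice *Trem2* and *Cd68* had r = 0.86 (exact p = 0.015, adjusted 0.22) and rho = 0.66 (exact p = 0.17, adjusted 0.64), with r = 0.98 without 1369-8 and 1369-3.

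*Spp1* also covaried with other genes in Ctrl. There it had r = 0.93 with *Trem2* (exact p = 0.018, adjusted 0.22) and rho = 0.89 (exact p = 0.033, adjusted 0.34), but r = 0.38 without 1367-1-2 and 1367-5, so that relation rests on those mice. In βCat-GOF mice *Spp1* and *Trem2* had r = 0.16 (exact p = 0.77, adjusted 0.88) and rho = 0.14 (exact p = 0.80, adjusted 0.89). With *Mmp12*, *Spp1* had r = -0.70 in βCat-GOF mice (exact p = 0.11, adjusted 0.38) and rho = -0.83 (exact p = 0.058, adjusted 0.35), and r = -0.67 without 1369-4 and 1369-2.

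Controls 1367-1-2 and 1367-5 also stood apart from the other controls in markers of the X-zone, an inner layer of the cortex in young female mice, marked by *Akr1c18*, which encodes a progesterone-degrading enzyme, and *Pik3c2g*. *Pik3c2g* was at 14707 normalized counts in control 1367-1-2 and 12004 in 1367-5, and between 303 and 3005 in the other controls. *Akr1c18* was at 92805 and 67330 in the same mice, and between 4697 and 23638 in the others. The βCat-GOF mouse 1369-2ear, lowest of the 12 for *Spp1*, was also the lowest for *Akr1c18* at 2085 and for *Pik3c2g* at 103. The βCat-GOF mouse 1369-4, in contrast to those controls, had the highest *Akr1c18* of the 12 at 118380 and *Pik3c2g* at 7804, but the lowest *Mmp12* of the 12 at 94.8 and *Gpnmb* at 16.1. Between genotypes neither X-zone gene was called, with edgeR adjusted p of 0.71 for *Akr1c18* and 0.797 for *Pik3c2g*. The part of the X-zone in the values of the macrophage genes was not tested.

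**Figure D3:**
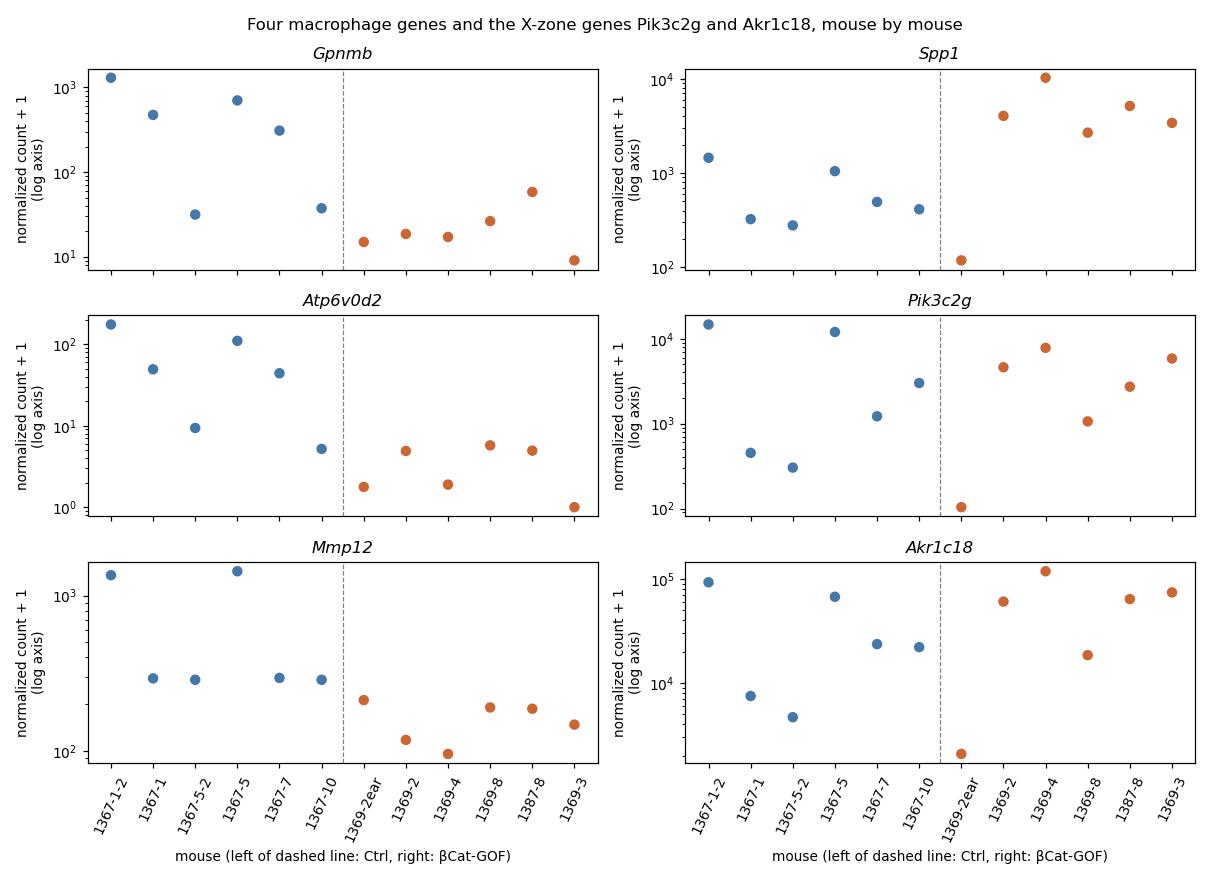
Normalized counts plus 1 (log axis) of *Gpnmb*, *Atp6v0d2*, *Mmp12*, *Spp1* and the X-zone genes *Pik3c2g* and *Akr1c18* in each of the 12 mice, Ctrl left of the dashed line and βCat-GOF right of it. Controls 1367-1-2 and 1367-5 are the highest controls in all 6 panels, 1369-2ear is the lowest mouse for *Spp1*, *Pik3c2g* and *Akr1c18*, and 1369-4 is the highest for *Akr1c18* and the lowest for *Mmp12*.

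For each gene, the non-members most like it were found by Pearson r over the 12 mice after removing the genotype means, among genes with a base mean above 100. These r values describe 12 libraries and share their depth and composition. They were picked as the highest of very many, since 11431 genes had such a base mean. How high the top r would come out by chance was not tested. *Cd68* was most like *Slc11a1*, a phagosomal metal transporter (r = 0.957), and *Capg* (0.95), which encodes an actin-capping protein of macrophages. *Capg* also came first for *Trem2* (0.933), before *Galm* (0.908) and *Ctsh* (0.891). *Lgals3* was most like *Ctss* (0.953), *S100a13* (0.947) and *Alox5ap* (0.937), which encodes the activating protein of 5-lipoxygenase. *Gpnmb* was most like *Gm17251* (0.893) and *Kit* (0.883), and *Itgax* most like *Myg1* (0.956) and *Arhgap1* (0.881). None is given for *Mmp12*, whose controls fall into 2 clusters. *Spp1* was most like *Sqle* (0.952), which encodes an enzyme of cholesterol synthesis, followed by *Kng2* (0.951) and *Fetub* (0.947). *Spp1* was at 117 normalized counts in the βCat-GOF mouse 1369-2ear and at 2685.5 or above in the other βCat-GOF mice. *Gpnmb* was at 30.5 and 36.3 in 2 controls and at 308 or above in the other controls. How far these low mice set the r values of *Spp1* and *Gpnmb* was not tested. *Ctsk* was most like *Pdzd2* (0.906) and *Syk* (0.903), and *Cd36* most like *Mlf1* (0.932) and *Sgpp1* (0.914).

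Other genes of the same cells and pathways were tested as lists written from general knowledge, 19 lists with 182 genes, of which 153 were tested. Of these 153, 3 were called lower and 4 higher, beside 0.869% and 1.48% of all genes tested at the same cut-offs. *Adgre1*, *Ms4a7* and *Abcg1* fell, and *Itgb3*, *Cx3cl1* and *Chil3* were among those that rose. With the adjusted p under 0.05 and no limit on fold or base mean, 1.52% of all genes tested were lower and 2.16% higher, and *Mrc1*, *Itga9* and *Cd4* joined the listed genes that were lower. Of the 7 genes called, *Cx3cl1* was called in 12 and *Chil3* in 11 of the 12 fits leaving out a mouse each, and the other genes in 3 to 5.

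**Figure D4:**
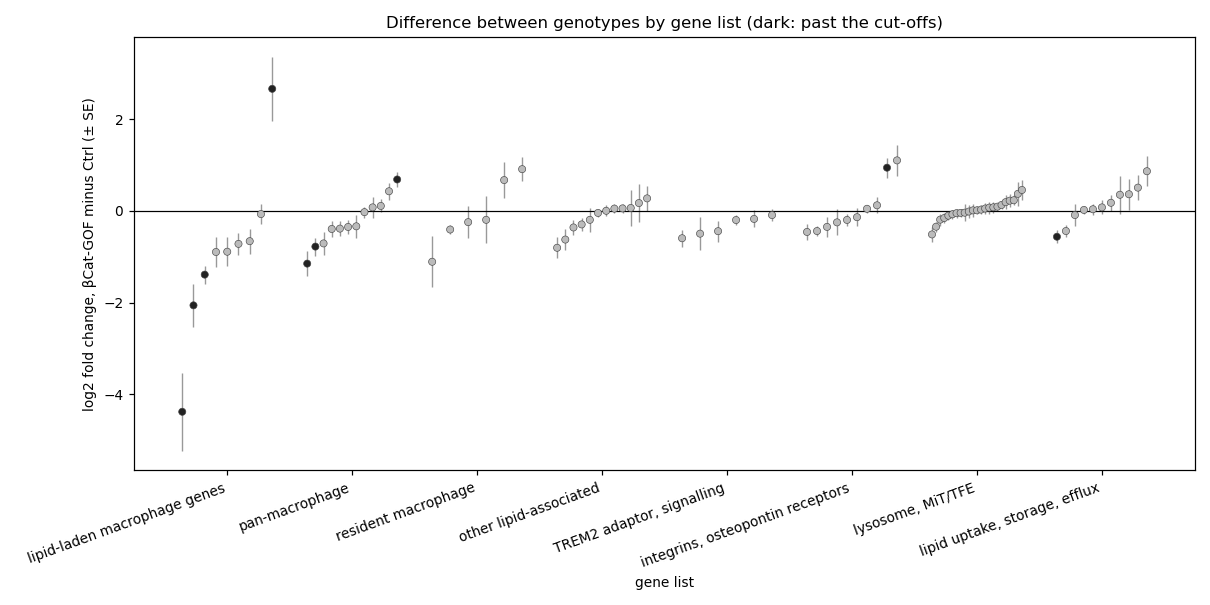
Log2 fold change (βCat-GOF minus Ctrl, error bars ± SE) of each tested gene in 8 lists, ordered by size within a list, with dark points for genes past the cut-offs. The 9 lipid-laden macrophage genes run from -4.38 to 2.66, and the lowest pan-macrophage marker is at -1.15.

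Of 12 pan-macrophage markers, all tested, 2 were called lower and 1 higher, with a median log2 fold change of -0.34. By direction alone 8 were lower and 4 higher, and at an unadjusted edgeR p under 0.05, 6 were lower and 2 higher. *Adgre1*, encoding F4/80, fell from 359 ± 76.9 to 210 ± 60.0 normalized counts, with a log2 difference of -0.78 (SE 0.198, edgeR adjusted p = 0.0459). *Ms4a7* fell from 243 ± 87.6 to 109 ± 40.5, a log2 difference of -1.15 (SE 0.28, edgeR adjusted p = 0.038). *Csf1r*, the growth factor receptor that marks macrophages as a class (named after its values were seen), was at 1037 ± 141 and 1124 ± 259, with edgeR adjusted p = 0.718. The summed level of the 12 markers ran from 9385 to 18039 normalized counts in Ctrl and from 7840 to 13233 in βCat-GOF mice, and none was at 0 in any mouse. Controls 1367-1-2 and 1367-5 had the 2 highest sums, but *Lyz2*, the lysozyme gene of myeloid cells (named after its values were seen), made up 45.3% of the sum in Ctrl. Without it 1367-1-2 was at 8556 and 1367-5 at 7840, with control 1367-5-2 between them at 8494. The share of macrophage number in the lower values of *Gpnmb*, *Mmp12* and *Itgax* was not tested.

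Of 8 resident macrophage markers 6 were tested and none was called by edgeR: 1 had an unadjusted p under 0.05 in each direction, and DESeq2 called none. *Mrc1*, the mannose receptor gene, had a log2 fold change of -0.41 (edgeR adjusted p = 0.0495), which is under the fold cut-off. *Lyve1* had a log2 fold change of 0.91 (edgeR adjusted p = 0.0702). Of 14 further genes of lipid-associated macrophages 12 were tested and none was called by edgeR, with a median log2 fold change of -0.02 and 3 unadjusted p values under 0.05, all lower. *Lilrb4a*, an inhibitory receptor gene, had a log2 fold change of -0.81 (edgeR adjusted p = 0.0746) and was called lower by DESeq2. *Apoe*, encoding the lipid carrier apolipoprotein E, was at 27126 ± 6700 and 28622 ± 16587 normalized counts (named after its values were seen). All 6 genes of TREM2 signalling had negative log2 fold changes with a median of -0.32, and none was called by edgeR, with 1 unadjusted p under 0.05. DESeq2 called *Tyrobp* lower.

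Of 24 lysosomal genes and their regulators 23 were tested and none was called by edgeR or DESeq2, with a median log2 fold change of 0.01, 2 unadjusted p values under 0.05 for lower and 1 for higher. *Mitf*, encoding a factor known to activate *Gpnmb* and *Atp6v0d2*, was at 246 ± 14.2 and 216 ± 42.7, a log2 fold change of -0.19 (edgeR adjusted p = 0.443), and its relative *Tfec* was too low to test at 11.6 ± 3.33 and 6.84 ± 3.44. Among 12 genes of lipid uptake, storage and efflux, 1 of 11 tested was called. *Abcg1*, a cholesterol exporter gene, fell from 372 ± 54.3 to 252 ± 43.7, a log2 difference of -0.56 (SE 0.141, edgeR adjusted p = 0.0422), with every βCat-GOF mouse below every control. *Plin2*, which coats lipid droplets, had a log2 fold change of -0.44 (edgeR adjusted p = 0.0977).

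Among 11 matrix proteases and inhibitors 9 were tested and none was called by edgeR or DESeq2, with 1 unadjusted p under 0.05 in each direction. *Mmp13*, a collagenase gene, had a log2 fold change of -1.29 (edgeR adjusted p = 0.073) and *Timp1*, an inhibitor of MMP12, one of 0.54 (edgeR adjusted p = 0.143). Of 9 osteoclast and giant cell genes 4 were tested and none was called by edgeR or DESeq2, with 1 unadjusted p under 0.05, lower; *Acp5*, encoding tartrate-resistant acid phosphatase, was at 396 ± 108 and 357 ± 151. Among 11 macrophage growth factors, chemokines and receptors, 1 of 8 tested was called: *Cx3cl1*, the ligand of the macrophage receptor CX3CR1, rose from 871 ± 119 to 1656 ± 538, a log2 difference of 0.92 (SE 0.191, edgeR adjusted p = 0.0168). *Csf2rb*, encoding a subunit of the GM-CSF receptor (named after its values were seen), was at 639 in control 1367-5 and 271 in 1367-1-2. The other controls lay between 55.0 and 107, and βCat-GOF mice between 60.3 and 345, highest in 1369-2.

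The lists for other cells gave 1 call, *Chil3*, which encodes a chitinase-like lectin of myeloid cells, a class that includes macrophages. It rose from 26.3 ± 14.1 to 273 ± 240, a log2 difference of 3.37 (SE 0.511, edgeR adjusted p = 0.00317), and all βCat-GOF mice exceeded all controls. It was in the list of monocyte and neutrophil markers, whose other 4 tested genes were not called, while *S100a8* and *Cxcr2* were too low to test. Of 9 dendritic cell markers 8 were tested and none was called by edgeR or DESeq2, with a median log2 fold change of -0.46 and 1 unadjusted p under 0.05, lower. Their summed level ran from 495 to 549 normalized counts in Ctrl and from 372 to 493 in βCat-GOF mice, but *Zbtb46*, a factor of dendritic cells that was named after its values were seen, made up 67.8% of the sum in Ctrl. Without it the sums overlapped, from 102 to 232 in Ctrl and from 85.0 to 159 in βCat-GOF mice. The part of dendritic cells in the level of *Itgax*, which they also express, was not tested. *Xcr1* had the lowest log2 fold change among them, -1.32 (edgeR adjusted p = 0.095). Of 10 lymphocyte markers 5 were tested and none was called by edgeR or DESeq2, with 1 unadjusted p under 0.05: *Cd4* had a log2 fold change of -1.35 (edgeR adjusted p = 0.033) at a base mean under the cut-off. None of the adipocyte, endothelial, melanocyte, X-zone, red cell and adrenal tissue markers was called by edgeR or by DESeq2. At an unadjusted p under 0.05, 3 endothelial markers were lower, 1 adipocyte and 1 adrenal tissue marker were higher, and 0 of the melanocyte, X-zone and red cell markers passed. The summed adipocyte markers ran from 4017 to 18997 normalized counts in Ctrl, highest in 1367-5, and from 5058 to 15554 in βCat-GOF mice.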

How the data were processed

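RNA-seq was analysed from 6 Ctrl and 6 βCat-GOF adrenals, 12 libraries. According to the study's methods and the labels, the authors trimmed adapters with cutadapt, aligned reads to mm10 with STAR and deposited raw counts of uniquely mapping reads per gene from featureCounts 1.4.4. The annotation release and strand setting are not given in the sources used here. The deposited second table is a signal, each library's counts divided by 1 factor, and was used only for its gene symbols and to check the counts. No column was left unmapped (0 columns). Each library is described as a separate mouse.

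Counts were tested with edgeR 4.0.16 (TMM, filterByExpr, two-sided quasi-likelihood test, Benjamini-Hochberg over 14953 genes) in R 4.3.3, at the study's cut-offs. A standard error is the log2 fold change divided by the square root of F. Normalized counts are counts divided by DESeq2 1.42.0 median-of-ratios factors. Log2 CPM used a prior count of 2. Positions, exon lengths and copies (blastn 2.17.0, at least 95% identity over 10% of a transcript) came from GENCODE M21. The scripts were tested on simulated data.

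The genes and lists were chosen with earlier results of these data known. Named from each list were at most 4 genes, called ones first and then the largest log2 fold changes, and fixed partners (*Tyrobp*, *Itgb2*, *Itgam*, *Atp6v0d1*, *Cd44*, *Timp1*, *Scarb1*, *Ctss*, *Mitf*, *Tfec*); others are marked. *Lilrb4a* is listed as *Lilrb4*. The values of 1 listed gene are not reported here, though it is in the counts. Depth limits genes with few counts. An SE gives the uncertainty of a fitted difference, and an SD the spread between mice. Alternatives were DESeq2 without shrinkage, its size factors, no filter, no limits, and left-out libraries. Leaving out 1367-1-2 and 1367-5, leaving out 1369-2ear and 1369-2, and correlations with *Atp6v0d2* or without *Mmp12*, and sums without the most abundant gene, were added after seeing the data.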

Additional observations from a re-analysis of the deposited data

Results flagged for a closer look

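Each of the 10 genes was examined in each genotype for a mouse whose distance to its nearest neighbour was a large part of the group's whole range (Dixon's ratio, at its 95% critical value for 6 mice), and 2 of these 20 groups had one. Chance alone gives about 1 in 20 groups. *Gpnmb* was at 57.2 normalized counts in the βCat-GOF mouse 1387-8, with the next mouse at 25.3 and a ratio of 0.649. *Cd68* was at 618 normalized counts in the βCat-GOF mouse 1369-8, with the next mouse at 343 and a ratio of 0.778. Mouse 1369-8 was also the highest βCat-GOF mouse for *Lgals3*, *Trem2* and *Itgax*, and without it the count of genes called lower held *Cd68* but not *Mmp12*.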

How the results depend on the processing

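The log2 fold changes of the 9 tested genes kept their sign in every alternative except *Cd36* (-0.20 to 0.16). Without controls 1367-1-2 and 1367-5, *Mmp12* was at -0.89, beside -2.06 in the fit of all 12 mice. In the same fit without these controls, *Gpnmb* was at -3.23, *Lgals3* at -0.46, *Cd68* at -0.43 and *Trem2* at -0.26. There *Itgax* was at -1.24, *Ctsk* at -0.84 and *Cd36* at -0.04, while *Spp1* was larger at 3.49. Leaving out these 2 controls left 1 gene called lower and 0 higher, with 0 listed genes called lower and 1 higher. Leaving out 1387-8 gave 0 genes called higher and 2 listed genes called higher. Leaving out 1369-2ear and 1369-2 gave 9 listed genes called higher. Leaving out the libraries whose labels repeat a stem gave 0 listed genes called lower and a median r in Ctrl of 0.80, beside 0.477 over all pairs, *Mmp12* included. DESeq2 gave 5 listed genes called lower, and the adjusted p alone gave 6. Over the fits without 1 mouse each, genes called lower numbered 2 to 3 and higher 0 to 1, listed genes called lower 0 to 4 and higher 1 to 10, and the median r ran from 0.375 to 0.636 in Ctrl and from 0.21 to 0.337 in βCat-GOF mice. Of the partner genes, *Atp6v0d1* (0.012) ran from -0.047 to 0.0763 and changed sign to -0.0097 without 1367-7, -0.0026 without 1367-10, -0.047 without 1369-4, -0.028 without 1369-8 and -0.0025 without 1369-3. The cause of these changes was not tested. No paired analysis was possible because the labels give no replicate numbers shared between genotypes. Depth limits *Atp6v0d2*, at 4 counts or fewer in each βCat-GOF library.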
